A study of Rattus norvegicus with 15 samples.

Results

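The cytosolic ribosomal protein genes of the rat were followed through the ductus arteriosus and the aorta around birth. They were chosen by symbol: a probe set was taken when its single annotated gene was an Rpl or Rps gene with a number, Rplp0, Rplp1, Rplp2 or Rpsa, and the kinases named Rps6k were left out. This gave 99 probe sets of 26202 on 3 Affymetrix rat chip types (chip A 59, chip B 17, chip C 23), which stood for 58 genes of 10969, 38 of the large subunit and 20 of the small subunit. Among the 58 were 6 duplicated or tissue-restricted forms. A further 52 probe sets were annotated to a ribosomal protein gene together with other symbols, often copies of it, and were left out by the rule. For 18 genes these were the only probe sets, among them Rplp2, Rpl8, Rpl10, Rpl13, Rps2, Rps4x, Rps12 and Rps14, so those genes were not measured alone.

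The ductus arteriosus joins the pulmonary artery to the aorta before birth and closes after it. Of the 5 states, a pair came from fetuses on day 19 of gestation (fetal ductus, fetal aorta) and a pair from newborns killed 3 h after a vaginal birth (newborn ductus, newborn aorta). The fifth, called the oxygen ductus here, was the vessel of day 19 fetuses after 3 h of maternal breathing of 100% oxygen. The aorta samples were of its arch and thoracic stretch. Fetuses were taken by caesarean section, from dams in normal air except for the oxygen ductus, and the medium for dissection, kept ice-cold, held 2.5% oxygen (fetuses) or 12.5% (newborns). One title, that of the newborn aorta on chip A, gives 3 h post coitum where the sample's description speaks of newborn rats, and the description was followed. The details come from the descriptions of chip A, and the states of chips B and C from their titles. The labels give neither the strain nor the number of animals per array.

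A ribosome is built from a small subunit, which reads the messenger RNA, and a large subunit, which joins amino acids. Each subunit is ribosomal RNA wrapped in many small basic proteins that are needed in nearly equal numbers. Their messenger RNAs are among the most abundant of growing cells, and most begin with a run of pyrimidines (C or T), the 5′ terminal oligopyrimidine tract, through which growth signals set how much they are translated.

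That start feature was looked for in the promoter table of RefSeq (rat assembly GRCr8), which held 51 of the 58 genes. The windows shown run from 10 bases before the annotated start to 20 bases from it, 30 bases in all, 5′ to 3′ on the strand of the gene, with the longest run of pyrimidines in capitals. Rps23 varied least over the 5 states, Rplp0 and Rplp1 are stalk proteins, Rpl37a and Rpl28 were among the brightest, and Rpl11, Rps21, Rpl3l, Rps4y2 and Rpl6 had the 5 widest ranges. Ranges are those of the brightest probe set of each gene.
Rps23 (chr2:23814507-23814536, plus strand): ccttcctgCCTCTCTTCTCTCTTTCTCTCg
Rplp0 (chr12:46718371-46718400, minus strand): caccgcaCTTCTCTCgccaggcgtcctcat
Rplp1 (chr8:71290853-71290882, minus strand): cgcatgtgaTCCTTTCCTCagctgccgcca
Rpl37a (chr9:81748081-81748110, plus strand): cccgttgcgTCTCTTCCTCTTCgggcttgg
Rpl28 (chr1:78083513-78083542, minus strand): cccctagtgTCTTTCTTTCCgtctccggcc
Rps21 (chr3:187724028-187724057, plus strand): agccaCTTCCTTTCTgtgttctccgtagac
Rpl3l (chr10:14258436-14258465, plus strand): ctggtgcctggtggggaggTCCCTTCCTaa
Rps4y2 (chr4:183000903-183000932, plus strand): cagCTCTCCTCactcgcttgtgctctggga
Rpl11 (chr5:153560783-153560812, minus strand): CTTgaagcttgtttggtgctggggagcatc
Rpl6 (chr12:41011671-41011700, minus strand): TTacatcactagatggcgggtgaaaaggcg
All but the last pair of windows hold a run of 8 or more pyrimidines, while the longest runs in the windows of Rpl11 and Rpl6 are 3 and 2 bases long. Of the 5 genes with the widest ranges 3 thus have such a run.

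A run of at least 8 pyrimidines stood in the window of 30 of the 51 genes (58.8%), against 10.8% of the 33469 promoters in the table. The median longest run was 9 bases for ribosomal protein genes and 4 for all. The annotated start was a C in 25 of the 51 (49.0%) and in 24.1% of all. In the 300 bases from 250 before to 50 after the start, on either strand, CCGGAAG stood in 13 of the 51 (25.5%, against 8.75% of all promoters) and AAGATGGC in 4 (7.84% against 3.17%). TATAAA stood in 7 (13.7%) and in 14.2% of all. These are matches of letters in an annotation whose start can lie some bases from the true one, and the arrays did not measure start sites.

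Of the 58 genes, each read at its brightest probe set, 57 had a signal above the floor in all 5 states. The floor, to which lower signals were raised before logarithms were taken, was the median of all signals on a chip type (chip A 149.8, chip B 241.7, chip C 243). Rps15a was the exception, with deposited signals of 149 in the fetal aorta, 213 in the newborn aorta, 172 in the fetal ductus, 168 in the oxygen ductus and 169 in the newborn ductus, all under the chip C floor, so no ratio was read from it. By probe set, 92 of 99 were above the floor in all 5 states and 4 in none. The members were bright: 74 of 99 lay in the brightest 10% of their chip, and the brightest probe set of 43 of the 57 genes had a mean signal of at least 5000. Together the 59 probe sets of chip A held 8.16% to 9.11% of the summed signal of an array.

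There was 1 array per state and chip type, 15 in all, so nothing was replicated and a ratio between states compares single arrays with no test. All arrays had been brought to a mean of about 500 before deposit (500.3 to 500.9 after trimming 2% at each end), so the values describe shares of the RNA measured and not amounts per cell, and fewer cells of a type cannot be told apart from less RNA per cell. Of 7 smooth muscle markers 7 were above the floor, and they summed to 45376 in the fetal aorta, the lowest state, and 96269 in the newborn ductus, the highest. Markers of other cells also differed between arrays: 9 of 9 heart muscle markers had more signal in the fetal ductus than the fetal aorta (summed signal 24079 against 9718, and 7135 in the newborn ductus), and 7 fat markers summed to 9433 in the newborn aorta and to between 642 and 1259 elsewhere. Of 6 erythroid markers 6 were lower in the fetal ductus than the fetal aorta, with a median log2 ratio of -1.28. The part of such cells in the ribosomal protein values was not tested.

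The ribosomal protein genes held close to one level through all 5 states. The lowest and highest of the 5 signals lay less than 1.5-fold apart for 43 of the 57 genes (75.4%), against 47.9% of the 8024 genes above the floor in any state. The median range was 1.29-fold for ribosomal protein genes and 1.52-fold for all. A span of 2-fold or more at the brightest probe set was seen in 5 genes, Rpl11, Rps21, Rpl3l, Rps4y2 and Rpl6. The share of all genes with such a span was not computed. Dimmer probe sets of Rpl7, Rpl7l1, Rpl21, Rpl23a, Rpl36a and Rpsa also spanned more than 2-fold, so the steadiness holds for the brightest probe sets. To compare genes of like brightness, the 43 members with a mean signal of at least 5000 were set beside the 262 other genes as bright. Over these members the standard deviation of the log2 ratio was 0.18 between fetal ductus and fetal aorta and 0.20 from fetal to newborn aorta, against 0.36 and 0.55 over the other bright genes. The value of 0.55 includes a lowest ratio of -5.73. Quartiles from fetal to newborn aorta were -0.05 and 0.14 over these members, and -0.15 and 0.31 over the other bright genes. From fetal to oxygen ductus the standard deviation was 0.18 against 0.26. The error of a single log2 ratio was estimated from how far the ductus-to-aorta ratio of a gene shifted between fetus and newborn. It was 0.13 over the members (a factor of 1.09) and 0.25 over the other genes of the brightest 10%. That 10% begins at signals of 1446, 1408 and 1439 on chips A, B and C, so these 2 estimates are not matched for brightness. Such an estimate counts any true difference between the stages as error.

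**Figure D1:**
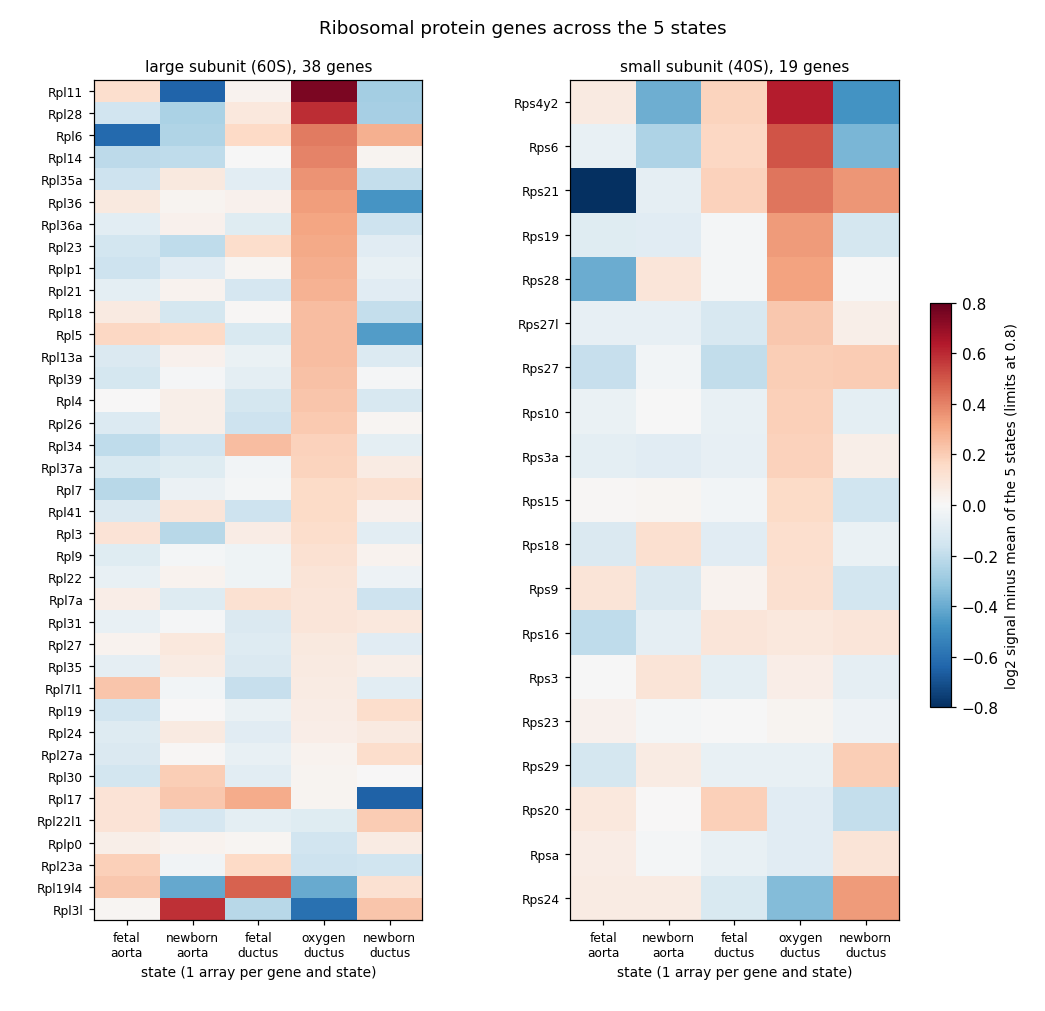
Log2 signal of the 57 ribosomal protein genes above the floor (rows, large subunit left, small subunit right, ordered by the oxygen ductus) less the mean of the 5 states (columns, 1 array each), in colour from -0.8 to 0.8. Most cells are pale, the oxygen ductus column is the reddest, and Rpl11, Rps21, Rpl3l, Rps4y2 and Rpl6 have the widest ranges.

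The colour map of signals by state shows 2 features, pale rows for most genes and 1 column, the oxygen ductus, that is redder than the rest. That state gave the highest signal for 35 of the 57 genes (61.4%), against 28.8% of all genes. The fetal aorta gave the lowest for 19 of 57 (33.3%, against 16.1% of all genes).

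The stalk of the large subunit, which recruits the translation factors, was read through Rplp0 and Rplp1. Rplp0, its anchor protein, had signals of 22081 in the fetal aorta, 21831 in the newborn aorta, 21633 in the fetal ductus, 19251 in the oxygen ductus and 22440.1 in the newborn ductus. The oxygen ductus was lowest and the other states lay close together, a range of 1.17-fold over all 5. Rplp1, which forms the side arms of the stalk with Rplp2, had 25303 in the fetal aorta, 26639 in the newborn aorta, 28687 in the fetal ductus, 34689 in the oxygen ductus and 27244 in the newborn ductus. Here the oxygen ductus was highest and the fetal aorta lowest, 1.37-fold apart. The pair thus ran opposite ways from fetal to oxygen ductus, with log2 ratios of -0.17 and 0.27, on different chip types.

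Among other large subunit proteins, the brightest by probe set were Rpl37a, Rpl28, Rpl34 and Rpl6, an order of probe sets that does not rank messenger levels. Rpl37a, a small zinc-binding protein, had 40104 in the fetal aorta, 40868 in the newborn aorta, 43052 in the fetal ductus, 49396 in the oxygen ductus and 45714 in the newborn ductus. All 3 ductus states were above both aorta states, by at most 1.23-fold. Rpl34 had 23762 in the fetal aorta, 24644 in the newborn aorta, 32419.8 in the fetal ductus, 31133 in the oxygen ductus and 25956 in the newborn ductus. At this chip B probe set the fetal and oxygen ductus were the high pair and differed from each other by 1.04-fold. The dim chip C probe set of Rpl34 read 580, 585, 529, 634 and 753 in the same order of states. There the newborn ductus was highest and the fetal ductus lowest. Rpl28 had 24204 in the fetal aorta, 22579 in the newborn aorta, 28468 in the fetal ductus, 40432 in the oxygen ductus and 22379.7 in the newborn ductus. Its oxygen ductus stood apart at 1.42 times the fetal ductus, and the 2 newborn vessels were lowest, within 1.01-fold of each other.

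The steadiest large subunit genes were Rpl22, Rpl24 and Rpl27. Rpl22 lay between 15760.1 and 17649, Rpl24 between 11849.8 and 13331, and Rpl27 between 10054 and 11448. The widest of these ranges was 1.14-fold.

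Rpl11 forms a particle with Rpl5 and 5S ribosomal RNA that is built into the large subunit and can also bind the p53 regulator Mdm2. Rpl11 had the widest range of all genes read at their brightest probe set. Its brightest probe set, on chip C, read 18799.9 in the fetal aorta, 10960.1 in the newborn aorta, 17441 in the fetal ductus, 28837 in the oxygen ductus and 14178 in the newborn ductus. The oxygen ductus was highest and both newborn vessels were below both fetal ones, a span of 2.63-fold. The 2 Rpl11 probe sets of chip A did not repeat this. The first read 14492, 14704, 13152, 13422 and 15424 in the same order of states and the second 10473, 10310, 9425, 12060.1 and 9797. Both stayed in a narrow band, and from oxygen to newborn ductus the 3 probe sets gave log2 ratios from -1.02 to 0.20. Rpl5 was dim, with 232 in the fetal aorta, 231 in the newborn aorta, 190 in the fetal ductus, 246 in the oxygen ductus and 152 in the newborn ductus. Its newborn ductus was lowest, 1.52-fold under the newborn aorta.

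Rpl6 showed the same split by chip. Its chip B probe set, of a class that can bind several related transcripts, read 14720.5 in the fetal aorta, 19168 in the newborn aorta, 25319 in the fetal ductus, 30249 in the oxygen ductus and 27632 in the newborn ductus, with the fetal aorta lowest and the oxygen ductus highest. On chip A, 1 probe set read 10701, 9867, 10134, 9414 and 9732 and the other 11789, 10713, 12605, 11073 and 10887, with no such order. The ductus-to-aorta excess of Rpl6 therefore rests on 1 probe set of 3. Rpl17, which lies near the exit of the nascent chain, had 769.7 in the fetal aorta, 829 in the newborn aorta, 878 in the fetal ductus, 724 in the oxygen ductus and 455 in the newborn ductus. The newborn ductus was the low state, 1.93-fold under the fetal ductus and 1.82-fold under the newborn aorta. Rpl36 had 10294 in the fetal aorta, 9884 in the newborn aorta, 9993 in the fetal ductus, 12259.8 in the oxygen ductus and 7036 in the newborn ductus. It too was lowest in the newborn ductus, 1.74-fold below the oxygen ductus, while the other 3 states lay within 1.04-fold.

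In the small subunit the steadiest gene of all was Rps23, a protein of the decoding centre. It had 14744 in the fetal aorta, 14239.7 in the newborn aorta, 14372 in the fetal ductus, 14589.6 in the oxygen ductus and 14019 in the newborn ductus. The 5 values lay within 1.05-fold. Rps3, at the entry of the messenger RNA, lay between 15936 and 18078 at its brightest probe set. Another on chip A lay between 9156 and 11858. The chip B probe set of Rps3 ranged more widely, from 10631 in the newborn ductus to 18743 in the oxygen ductus. Rpsa, also known as the laminin receptor, lay between 12843 and 14693 at its brightest probe set.

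Of the brightest small subunit probe sets, Rps16 had 39081 in the fetal aorta, 42739 in the newborn aorta, 48031 in the fetal ductus, 47751 in the oxygen ductus and 48186 in the newborn ductus. The 3 ductus states were close together and above both aorta states. Its chip A probe set did not show this order, with 21521, 23038, 20653, 21564 and 23097. Nor did its dim chip C probe set, with 554.5, 625, 650, 627 and 422, where the newborn ductus was lowest. Rps20 had 32516 in the fetal aorta, 30777 in the newborn aorta, 35012 in the fetal ductus, 28841 in the oxygen ductus and 26910 in the newborn ductus. It was lower in the newborn than in the fetal ductus by 1.30-fold and in the oxygen ductus by 1.21-fold. Rps18 lay between 24682 and 29311, Rps19, which is needed for small subunit maturation, between 20873 and 29076, and Rps29 between 20736 and 26292. Rps18 and Rps19 were highest in the oxygen ductus and Rps29 in the newborn ductus.

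Rps21, a small protein of the 40S subunit, had the widest range of the small subunit genes read at their brightest probe set. It had 568 in the fetal aorta, 1006 in the newborn aorta, 1203 in the fetal ductus, 1425 in the oxygen ductus and 1351 in the newborn ductus. The fetal aorta stood alone as the low state, 1.77-fold under the newborn aorta and 2.12-fold under the fetal ductus. Rps28, on the same chip B arrays, had 12879 in the fetal aorta, 18076 in the newborn aorta, 16739 in the fetal ductus, 21155 in the oxygen ductus and 16858 in the newborn ductus. Its fetal aorta was also lowest and its oxygen ductus highest. Rps6, the small subunit protein phosphorylated by S6 kinase, had 4 probe sets that disagreed. The brightest, on chip C, read 12226 in the fetal aorta, 10751 in the newborn aorta, 14299 in the fetal ductus, 18091 in the oxygen ductus and 9901 in the newborn ductus, and was 1.83-fold lower in the newborn than in the oxygen ductus. The dimmest, also on chip C, read 291, 443, 257, 281 and 412 in that order and was highest in the 2 newborn vessels. The 2 on chip A read 6562, 6595, 6349, 7734 and 6031 and 11309.9, 13084, 10599, 13321 and 8676. All but the dimmest had their highest value in the oxygen ductus. Rps24 on chip A had 1541 in the fetal aorta, 1536 in the newborn aorta, 1348 in the fetal ductus, 1155 in the oxygen ductus and 1857 in the newborn ductus. There the newborn ductus was highest and the oxygen ductus lowest. Its dimmer chip B probe set went the other way, with 210, 177, 386, 457 and 329 in the same order of states. The oxygen ductus was highest on it, and both aorta values were under the floor. A chip C probe set of Rps24 was above the floor in only 1 state. Rps27 had 15985 in the fetal aorta, 17842 in the newborn aorta, 15844 in the fetal ductus, 20784 in the oxygen ductus and 20870.5 in the newborn ductus, with the oxygen and newborn ductus as the high pair.

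The duplicated or tissue-restricted forms were measured for 6 genes. Rpl3l, a form of Rpl3 restricted to striated muscle, had 238 in the fetal aorta, 353 in the newborn aorta, 202 in the fetal ductus, 156 in the oxygen ductus and 275 in the newborn ductus on chip A. It was near the floor, lowest in the oxygen ductus and highest in the newborn aorta, and so did not follow the heart muscle markers, whose summed signal was highest in the fetal ductus. Its 2 other probe sets were under the floor in all states. Rps4y2, named as a relative of Rps4x, had 786 in the fetal aorta, 570.3 in the newborn aorta, 846 in the fetal ductus, 1157 in the oxygen ductus and 538 in the newborn ductus. Both newborn vessels were below both fetal ones, and the oxygen ductus was highest. Rpl22l1, the paralog of Rpl22, lay between 3056 and 3862. Rps27l, the paralog of Rps27, lay between 3029.8 and 3853, with the oxygen ductus highest. The gene annotated as Rpl19l4, a copy named for Rpl19, had 2468 in the fetal aorta, 1600.3 in the newborn aorta, 2936 in the fetal ductus, 1603 in the oxygen ductus and 2309.8 in the newborn ductus. It was 1.83-fold lower in the oxygen than in the fetal ductus, while Rpl19 itself lay between 13315 and 16310.2. Rpl7l1 had 3 probe sets that went different ways. The brightest lay between 1591 and 2109, and the chip B probe set read 1008, 789, 888, 331 and 602, with the oxygen ductus lowest. Probes can also bind near-identical copies, so the values of paralogs are uncertain.

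The 23 members not described singly, 19 of the large and 4 of the small subunit, had ranges from 1.14-fold (Rpl35) to 1.52-fold (Rpl14) at their brightest probe sets. Of these 19 had their highest signal in the oxygen ductus, and the exceptions were Rpl7a, Rpl23a, Rpl27a and Rpl30. For the 26 genes with several probe sets the brightest was a median of 3.70 times the dimmest. Probe sets of one gene took opposite signs in 84 of 148 gene and comparison pairs. In 13 of the 148 their log2 ratios were also more than 1 apart, in Rpl7, Rpl7l1, Rpl11, Rpl21, Rpl23a, Rps6, Rps24 and Rpsa. The counts of genes higher and lower given below rest on the brightest probe set of each gene.

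The first question of the design was how ductus and aorta differ. In the fetus the median log2 ratio of ductus over aorta was 0.01 over 57 genes, 30 higher and 27 lower, and -0.02 over all 7610 genes. The split depended on the scaling: with arrays scaled to a common median it was 47 higher and 10 lower, with a median of 0.0825 (0.0479 over all genes), and after quantile normalization 25 higher and 31 lower, with a median of -0.0120. At least 1.5-fold higher in the ductus were 2 of 57, Rps21 at 1.08 (log2) and Rpl6 at 0.78, and lower were 0. Of all genes 4.15% passed that fold upwards and 5.1% downwards. The next ratios were Rpl34 at 0.45 upwards, and Rpl7l1 at -0.41, Rpl5 at -0.29 and Rpl3l at -0.24 downwards. The dim chip C probe set of Rpl34 stood at -0.13. The chips differed here: on chip B 12 of 15 member probe sets were higher in the fetal ductus, with a median of 0.29, while the medians on A and C were -0.04 and -0.02. All probe sets of chip B had a median of -0.02, and Rps21, Rpl6 and Rpl34 were read on that chip.

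In the newborn the median of ductus over aorta was -0.02 over 57 genes (24 higher, 33 lower), and -0.01 over all genes. None was 1.5-fold higher, while 2 were 1.5-fold lower, Rpl17 at -0.87 and Rpl5 at -0.60. Of all genes 6.14% and 5.89% passed that fold up and down. The highest ratios were 0.53 for Rpl19l4, 0.53 for Rpl6 and 0.43 for Rps21.

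Both stages were put into one limma fit per chip of vessel and stage on 4 arrays, in which the single residual degree of freedom is the interaction of the 2. For vessel, limma called 0 of 94 member probe sets at an adjusted p under 0.05, against 0.0362% of all probe sets (5 of 13810). At an unadjusted p under 0.05 there were 6 of 94, and 7.75% of all. The lowest adjusted p in limma among members was 0.495, for Rps21, with a log2 effect of 0.75 ± 0.24 (SE), higher in the ductus at both stages. The 5 alternative settings of the fit also called 0 for vessel.

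Birth was the second comparison. In the ductus the median of newborn over fetus was 0.01 over the 57 genes, with 32 higher and 25 lower, and -0.05 over all genes. After quantile normalization it was -0.0491, with 22 higher and 33 lower. None was 1.5-fold higher and 2 were lower, Rpl17 at -0.95 and Rps4y2 at -0.65, where 7.54% of all genes passed upwards and 9.55% downwards. Rps6 followed at -0.53. The highest were Rps24 at 0.46, Rpl3l at 0.44 and Rps27 at 0.40. The dimmer chip B probe set of Rps24 stood at -0.23.

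In the aorta the median of newborn over fetus was 0.05 (36 higher, 21 lower), and -0.05 over all genes. Here too the scaling mattered: the median was 0.111 (44 higher, 13 lower) with a common median, 0.0854 (43 higher, 14 lower) with a common 75th percentile and -0.0224 (23 higher, 31 lower) after quantile normalization. Rps21 was 1.5-fold higher at 0.82, and 2 were 1.5-fold lower, Rpl11 at -0.78 and Rpl19l4 at -0.63. Of all genes 7.49% passed upwards and 10.9% downwards. Rpl3l at 0.57 and Rps28 at 0.49 came next among those higher. The birth ratios of ductus and aorta share no array. Over all 58 genes they had the same sign in 42, a count that includes Rps15a, which was set to 0 in both. Pearson r across these genes was 0.48, beside 0.57 over 1600 other genes of the brightest 10%. Points share their probe set and chip type, and genes are not independent replicates.

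For birth, limma called 0 of 94 member probe sets at an adjusted p under 0.05, against 1.69% of all probe sets (233 of 13810). At an unadjusted p under 0.05 there were 8 of 94, and 18.6% of all. The lowest adjusted p in limma was 0.102, for a dim probe set of Rpl36a with a log2 effect of 0.74 ± 0.22 (SE), higher in newborns. Its signals were 959 in the fetal aorta, 1684 in the newborn aorta, 664 in the fetal ductus, 1406 in the oxygen ductus and 1058 in the newborn ductus. The bright Rpl36a probe set lay between 20035 and 27894, and was not higher in the newborn ductus. The dim probe set was the call made when signals under the 75th percentile were raised to it (adjusted p = 0.0182 in limma). After quantile normalization Rpl11 on chip C was called instead (adjusted p = 0.0487 in limma, log2 effect -0.75). Of all probe sets, 233 of 6952 and 244 of 13650 were called under these settings.

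**Figure D2:**
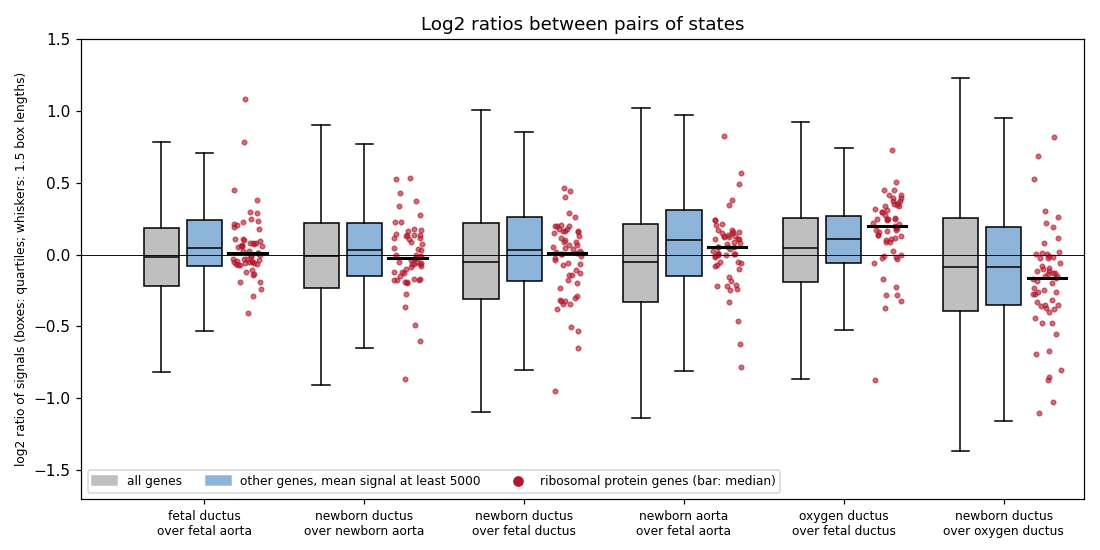
Log2 ratios of signals (vertical axis) in the 6 pairs of states for all genes (grey boxes), other genes with a mean signal of at least 5000 (blue boxes) and the 57 ribosomal protein genes (red points, black bar at the median). The median of the ribosomal protein genes lies between -0.02 and 0.05 in the first 4 pairs, at 0.20 for the oxygen over the fetal ductus and at -0.17 for the newborn over the oxygen ductus.

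Exposure of the dam to oxygen was the third comparison. The plot of ratios by pair of states shows a shift shared by most members: 44 of 57 genes were higher in the oxygen than in the fetal ductus and 13 lower, with a median log2 ratio of 0.20, or 1.15-fold. The median over all genes was 0.04 and over the 262 other genes with a signal of at least 5000 it was 0.11, of which 172 were higher. The size per gene was small: 1 of 57 was 1.5-fold higher, Rpl11 at 0.73, and 1 was 1.5-fold lower, Rpl19l4 at -0.87, where 4.44% and 5.28% of all genes passed up and down. Rpl28 at 0.51 and Rps4y2 at 0.45 were next among the higher, and Rpl3l at -0.37 and Rpl23a at -0.32 among the lower. The median was 0.19 for the large subunit (30 of 38 higher) and 0.22 for the small (14 of 19 higher).

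The shift was present on each chip type, with medians of 0.16, 0.25 and 0.25 over the member probe sets of A, B and C, beside 0.10, 0.10 and 0.11 over the brightest 10% of probe sets. The probe sets shared with gene copies, which are not members, had a median of 0.21, with 42 of 48 higher. Genes with a pyrimidine run of at least 8 and those with a shorter run had medians of 0.20 (29 genes) and 0.26 (21 genes). The size moved with the scaling of the arrays: with a common median 52 members were higher and 5 lower, at a median of 0.41. Scaling each array to a common median moved the median ratio of all probe sets by 0.17, and the members then stood 0.20 above all genes, beside 0.16 as deposited and 0.07 after quantile normalization.

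**Figure D3:**
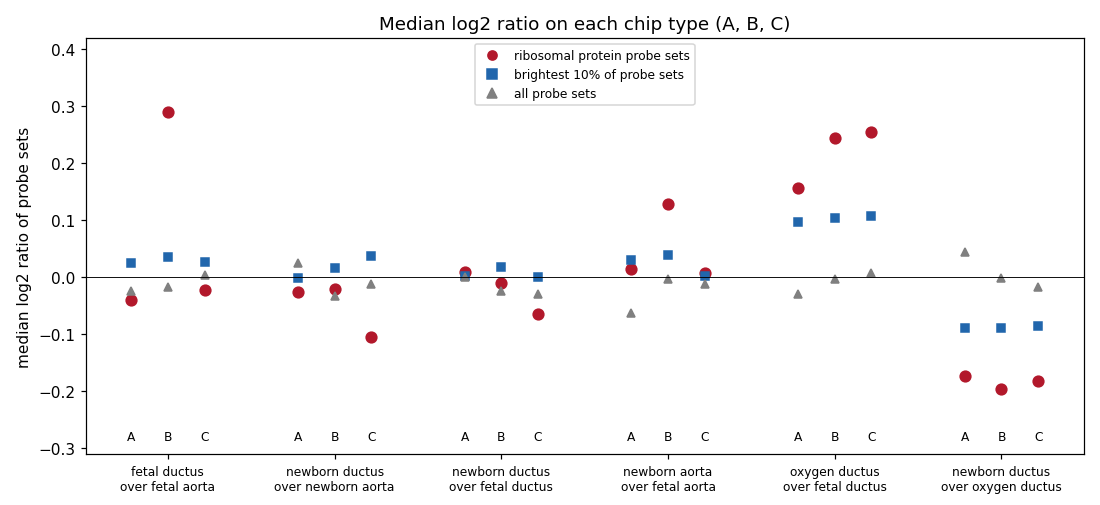
Median log2 ratio (vertical axis) over ribosomal protein probe sets (red circles), the brightest 10% of probe sets (blue squares) and all probe sets (grey triangles) on chips A, B and C, for the 6 pairs of states. The oxygen over fetal ductus medians of the members are above 0 on every chip (0.16, 0.25 and 0.25), and the fetal ductus over aorta median stands at 0.29 on chip B only.

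RNA quality moved with the oxygen ductus. The labels do not say whether the 3 arrays of a state, shown apart in the plot of medians by chip type, were hybridised with one RNA. The ratio of 3′ to 5′ control signal, which rises as RNA is shortened or copied incompletely, was 2.54 to 3.26 for beta-actin in the oxygen ductus and 1.19 to 1.51 in the other states. For Gapdh it was 1.69 to 2.49 against 1.26 to 1.58. The oxygen ductus arrays also had the fewest probe sets above the floor (46.9% on chip A, against 50.1% to 51.8% in the other states). The part of RNA quality in the ribosomal protein shift was not tested.

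**Figure D4:**
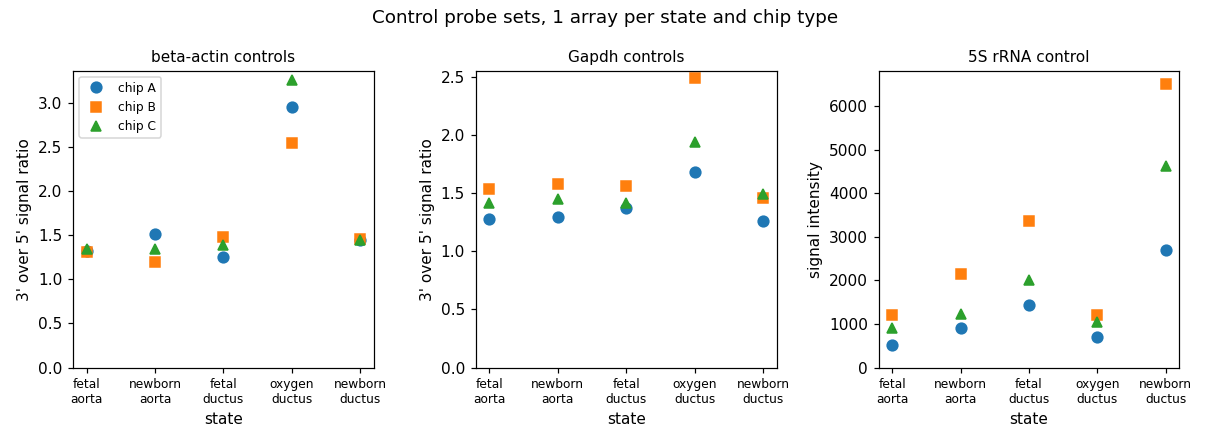
Ratio of 3′ to 5′ control signal for beta-actin (left) and Gapdh (middle), and signal of the 5S ribosomal RNA control (right), by state for chips A, B and C, 1 array each. The oxygen ductus has the highest 3′ to 5′ ratios on every chip (beta-actin 2.54 to 3.26), and the newborn ductus the highest 5S signal.

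The added limma fit with a term for oxygen, chosen after seeing the data, called 0 of 94 member probe sets, against 0.0213% of all (3 of 14055). Its oxygen arm was 1 array per chip with no spread of its own, so its errors and p values come from the other 4 arrays and assume that the oxygen array varies as they do. At an unadjusted p under 0.05 there were 6 of 94, and 9.87% of all. The lowest adjusted p values in limma were 0.106 for the chip B probe set of Rpl7l1, with a log2 effect of -1.37 ± 0.29 (SE), and 0.108 for a dim probe set of Rpsa, at -1.40 ± 0.30. That Rpsa probe set read 835 in the fetal aorta, 1059.6 in the newborn aorta, 1023 in the fetal ductus, 365 in the oxygen ductus and 1006 in the newborn ductus. The oxygen ductus alone was low there, while its 2 bright probe sets on chip A read 11219, 10788, 11186, 13302 and 10565 and 14248, 13557, 13122, 12843 and 14693. With the floor at the 75th percentile the dim probe set of Rpl36a was called (adjusted p = 0.0102 in limma, log2 effect 1.12).

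From oxygen to newborn ductus most members were lower, with a median of -0.17 over 57 genes (13 higher, 44 lower), and -0.09 over all genes and also over the 262 other bright genes. With arrays scaled to a common median it was -0.43 (4 higher, 53 lower). This ratio shares the oxygen ductus array with the one before, so the pair of shifts is linked by construction. At least 1.5-fold lower were 7 of 57, against 14.4% of all genes. Of these, Rps4y2 at -1.10 and Rpl11 at -1.02 were at least 2-fold lower, as were 241 of 7531 genes in all. Rps6 at -0.87, Rpl28 at -0.85, Rpl36 at -0.80, Rpl5 at -0.69 and Rpl17 at -0.67 made up the 7. At least 1.5-fold higher were 2, Rpl3l at 0.82 and Rps24 at 0.69, against 10.4% of all genes. The dimmer chip B probe set of Rps24 stood at -0.47.

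5S ribosomal RNA, the small RNA of the large subunit, has a control probe set on each chip and did not follow the protein genes. On chip A it read 527.8 in the fetal aorta, 903.7 in the newborn aorta, 1435 in the fetal ductus, 696.7 in the oxygen ductus and 2697 in the newborn ductus. The newborn ductus was highest on all 3 chip types, 2.98 to 3.74 times the newborn aorta, and the oxygen ductus was 1.92 to 2.80 times lower than the fetal ductus. The 5S transcript carries no poly(A) tail, so its signal also depends on how the RNA was copied, which was not tested.

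The genes that work with the ribosome were given in lists. Of 4 ribosomal proteins with other symbols 2 were measured: Fau, which encodes Rps30 fused to a ubiquitin-like protein, at 24355 in the fetal aorta, 26633 in the newborn aorta, 29547 in the fetal ductus, 33863 in the oxygen ductus and 26894 in the newborn ductus, and Rack1, a scaffold on the small subunit, between 13979 and 15622. Fau was highest in the oxygen ductus, as most members were, and Rack1 lowest there. The 14 measured genes of the same messenger class, most of them translation factors, had a median of 0.17 from fetal to oxygen ductus (10 of 14 higher). Eif3e at 0.58 and Eef1b2 at 0.36 were the highest and Eif4b at -0.33 and Eif2s3 at -0.11 the lowest. This list also held Hnrnpa1, Naca and Btf3. Eef2, the elongation factor that moves the ribosome along, lay between 10944 and 11865 over the 5 states. The 39 initiation factors and their regulators had an oxygen median of 0.11 (25 of 39 higher), and with birth 25 of 37 were lower in the ductus and 26 of 37 in the aorta. Beside these counts, 55.0% of all genes and 67.3% of the other genes of the brightest 10% were higher in the oxygen than in the fetal ductus, so 25 of 39 is near the background. With birth, 4132 of 7548 genes were lower in the ductus and 4247 of 7675 in the aorta.

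Genes of ribosome assembly and the nucleolus were mostly lower after birth. Their medians of newborn over fetus were -0.26 in the ductus (22 of 29 lower) and -0.24 in the aorta (22 of 29 lower), where the ribosomal proteins had 0.01 and 0.05. In the ductus the lowest were Xpo1, an export receptor that also carries ribosomal subunits out of the nucleus, at -1.09, and Mybbp1a, a nucleolar protein, at -0.87. Nob1, a nuclease of small subunit maturation, was higher at 0.93. In the aorta Rrp1, a nucleolar protein, was at -1.19 and Nob1 at 0.66. Bysl, which acts in small subunit assembly, had 657 in the fetal aorta, 148 in the newborn aorta, 288 in the fetal ductus, 1058 in the oxygen ductus and 151 in the newborn ductus, and both newborn values were under the chip B floor. Proliferation genes were lower too, with medians of -0.94 (14 of 14 lower) and -0.57 (13 of 14 lower). The difference between lists was not tested, and the part of dividing cells in it was not tested.

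Mitochondrial ribosomal proteins, which build the separate ribosome of mitochondria, had other medians than the cytosolic ones in some pairs, differences that were not tested. In the newborn their median of ductus over aorta was -0.27 (56 of 68 lower), against -0.02 for the cytosolic genes, on arrays where the newborn aorta carried the fat markers given above. From fetal to newborn ductus it was -0.15 (48 of 66 lower), against 0.01. From fetal to oxygen ductus both were higher, with medians of 0.23 (55 of 68 higher) and 0.20. The respiratory chain genes also stood at 0.23 there (54 of 71 higher), and 11 of 14 proliferation genes were higher, while 8 of 8 fibroblast and matrix genes were lower, with a median of -0.10. Higher signal in the oxygen ductus was thus seen in several other lists on the same arrays.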

How the data were processed

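The values deposited by the authors were linear signal intensities per probe set. The submitters' processing notes name MAS5 for 4 of the 5 chip A arrays (not the fetal aorta) and the processing of chips B and C is not given in the sources used here. Members, lists and named genes were chosen with earlier results of these data known. The 177 control probe sets were left out of all counts. Of 26202 others, 18178 had 1 gene symbol in the platform annotation, 391 several and 7633 none. Of the 58 member genes 57 were found by gene number in the gene table with no symbol altered. Any signal below the pooled chip median was raised to that floor, log2 was taken, and a gene was read at the probe set with the highest mean log2 signal. Genes named were the stalk proteins and Rpsa, the 5 brightest per subunit, the 5 widest ranges, the 3 largest ratios each way per pair, the duplicated forms, those under the floor, those with discordant probe sets, and the 2 largest each way per companion list where described, with the 5 narrowest added. The set of genes with a signal of at least 5000, the oxygen fit and the shared probe sets were chosen after seeing the data. limma (version 3.58.1, R 4.3.3) was fitted per chip to probe sets with 2 or more arrays above the floor, with Benjamini-Hochberg adjustment over the chip and a threshold of 0.05, and was tested on simulated data. Arrays of a state carry no replicate, so no spread between samples was measured, and their number limits the precision.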

Additional observations from a re-analysis of the deposited data

How the results depend on the processing

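Medians were judged against the spread over the 3 chip types. The medians for fetal ductus over aorta and for birth in each vessel changed sign under at least 1 alternative, while those for newborn ductus over aorta, oxygen over fetal ductus and newborn over oxygen ductus kept theirs under every alternative run. The fetal ductus over aorta median was 0.29 on chip B alone, and the newborn one -0.10 on chip C alone. Birth in the ductus gave -0.0491 after quantile normalization, 0.0515 with a common 75th percentile, -0.0636 on chip C alone and -0.0843 on the probe sets shared with copies. Birth in the aorta gave -0.0224 after quantile normalization and 0.13 on chip B alone. The oxygen over fetal ductus median was 0.13 after quantile normalization, 0.41 with a common median, 0.27 with a common 75th percentile, 0.25 on chip C alone and 0.0731 less the median of other genes of the brightest 10%. The newborn over oxygen ductus median was -0.43 with a common median, -0.20 with a common 75th percentile, -0.20 on chip B alone, -0.18 on chip C alone, -0.18 without the duplicated forms, -0.23 on the shared probe sets and -0.0343 less that of the brightest 10%. For birth, calls in limma rose from 0 to 1 member probe set with the floor at the 75th percentile (1 of 85, against 233 of 6952 of all probe sets). After quantile normalization there was also 1 (of 94, against 244 of 13650). For oxygen with the floor at the 75th percentile, the dim probe set of Rpl36a had a log2 effect of 1.12. The fit for oxygen, the shared probe sets and the brightest 10% reference were chosen after seeing the data. The causes of these changes were not tested. Signals near the floor limit what Rps15a, Rpl3l and Rpl5 show.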
